A study of Mus musculus with 12 samples.

Results

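The genes described here are 38 genes of the ATF4 amino acid response and of the cytosolic tRNA synthetases, taken from a fixed list of gene symbols and found among the 46262 genes of a transcript table from primary mouse microglia. They fall into 12 stress factors, 9 enzymes of amino acid, serine and one-carbon synthesis, 5 amino acid transporters and 12 tRNA synthetases. The microglia came from mixed glial cultures of WT forebrain or cerebellum and received 1 ligand for 24 hours, CSF-1 (20 ng/ml) in some cultures and IL-34 (100 ng/ml) in the others. Each of the 4 combinations of region and ligand has 3 libraries, made from separate cultures per the series' design text. CSF-1 and IL-34 are the 2 ligands of the receptor CSF1R, on which microglia depend. No culture without ligand was analysed here, the ligands were given at different doses, and the labels give no age, although the deposited table is titled as neonatal. The extraction text in the labels speaks of human tissue, whereas the organism, the cell type and all gene identifiers are mouse. A comparison therefore describes 2 ligand regimens in cultured cells, and the p-values measure the spread between cultures.

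ATF4 is a transcription factor whose protein is made more when the initiation factor eIF2 is phosphorylated, as happens when a kinase senses uncharged tRNA or misfolded protein. With partners of the C/EBP family it binds C/EBP-ATF response elements and raises genes that import amino acids, make asparagine, serine, glycine and proline, and charge tRNAs. Another set of its targets, among them Ddit3 (CHOP), Trib3 and Chac1, acts in feedback and in cell death under prolonged stress. ATF4 protein is set largely by translation, so Atf4 mRNA is an incomplete guide to it, and the transporters and synthetases are also known targets of growth signals through mTORC1.

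The values are TPM, a length-scaled relative transcript abundance, summed over the transcripts of a gene. TPM has the same total in each library and is scaled by transcript length, so levels can be set side by side between genes. This is less sure for genes with short transcripts, whose share of TPM differed between libraries, as given below. Depth is unknown and no counting interval can be given. Between 11740 and 11904 genes reached 1 TPM per library, and none of the 66 library pairs was identical. Of the microglial markers, Csf1r, the receptor of both ligands, was at 1128 to 1331 TPM, whereas P2ry12 (7.1 to 11.7 TPM) and Tmem119 (7.15 to 20.4 TPM) were low. Summed markers of neurons were 0.702 to 4.8 TPM. Those of mesenchymal and endothelial cells were 8.73 to 14.2 TPM in forebrain and 4.5 to 6.57 TPM in cerebellum libraries, with Cldn5 at 0 in all 12. This gap was mostly Acta2, at 5.63 to 9.48 TPM in forebrain and 1.53 to 2.79 TPM in cerebellum. Col1a2 lay mostly the other way (0.0228 to 0.429 and 0.319 to 0.981 TPM), and Pecam1 overlapped. In bulk RNA, fewer cells of a type and less RNA per cell cannot be told apart. The cerebellum IL-34 libraries stood apart in transcript length: transcripts under 600 nt held 2.58%, 3.31% and 0.947% of their TPM in replicates 1, 2 and 3, against 0.0269% to 0.555% in the other 9 libraries. Results that rest on the cerebellum IL-34 group are therefore also given from transcripts of a minimum length, or without its replicates 1 and 2.

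Because the members share a regulator that binds a short DNA element, their promoters were read for the core of that element, TGATGNAA, on both strands. RefSeq promoter windows of GRCm38.p6, from 250 bases before to 50 bases after an annotated start, were found for 31 of the 38 members. The core was in a window of 13 of the 31 (41.9%), against 1219 of all 27025 genes with a window (4.51%). The E-box CACGTG, whose last letters TG can be the first letters of the core, was in 5 of the 31 (16.1%), against 8.09% of all genes. By role, the core was in 4 of 11 stress factors, 3 of 9 synthesis enzymes, 1 of 3 transporters and 5 of 8 synthetases. Many members are listed because they are known ATF4 targets, so this share is a description of the list, and a match of letters is not a binding site.
The windows of the 4 members with a match and the smallest p-values over the 6 comparisons follow, 5′ to 3′ on the gene's strand, with the core in capitals. They belong to 2 synthetases and 2 stress factors whose mRNA differed between ligands or regions.
Iars, chr13:49681880-49682179, plus strand: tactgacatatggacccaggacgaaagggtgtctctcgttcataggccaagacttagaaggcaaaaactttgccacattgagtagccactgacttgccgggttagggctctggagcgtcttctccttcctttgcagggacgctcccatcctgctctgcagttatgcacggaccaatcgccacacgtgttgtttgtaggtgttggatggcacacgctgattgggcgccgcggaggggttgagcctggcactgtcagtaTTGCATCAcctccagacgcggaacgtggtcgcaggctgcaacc
Trib3, chr2:152344011-152344310, minus strand: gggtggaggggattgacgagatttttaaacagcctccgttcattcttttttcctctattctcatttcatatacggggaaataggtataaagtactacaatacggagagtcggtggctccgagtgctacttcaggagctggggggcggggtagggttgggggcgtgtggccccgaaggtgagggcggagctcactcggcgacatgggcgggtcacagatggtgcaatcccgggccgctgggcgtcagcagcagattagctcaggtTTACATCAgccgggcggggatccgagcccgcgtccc
Nupr1, chr7:126625421-126625720, minus strand: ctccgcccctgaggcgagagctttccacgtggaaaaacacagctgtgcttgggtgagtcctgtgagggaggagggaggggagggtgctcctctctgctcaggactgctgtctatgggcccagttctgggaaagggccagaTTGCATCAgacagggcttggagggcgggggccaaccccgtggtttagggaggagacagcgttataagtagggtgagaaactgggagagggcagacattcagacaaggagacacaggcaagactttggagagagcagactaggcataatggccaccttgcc
Tars, chr15:11399609-11399908, minus strand: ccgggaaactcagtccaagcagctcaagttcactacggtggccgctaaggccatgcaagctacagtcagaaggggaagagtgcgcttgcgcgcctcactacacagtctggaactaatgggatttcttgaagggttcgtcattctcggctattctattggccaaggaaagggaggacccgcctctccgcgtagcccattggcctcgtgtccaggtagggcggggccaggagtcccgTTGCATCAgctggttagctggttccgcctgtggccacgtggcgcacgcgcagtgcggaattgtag
Shorter stretches show the core in the next 4 members by p-value, Gars, Yars, Chac1 and Slc1a4.
Gars, chr6:55037955-55037994, plus strand: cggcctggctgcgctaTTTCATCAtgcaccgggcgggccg
Yars, chr4:129189890-129189929, plus strand: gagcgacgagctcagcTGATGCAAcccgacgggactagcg
Chac1, chr2:119351033-119351072, plus strand: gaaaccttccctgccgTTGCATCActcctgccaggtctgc
Slc1a4, chr11:20332694-20332733, minus strand: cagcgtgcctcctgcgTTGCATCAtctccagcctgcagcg
In these 8 members the core read TTGCATCA, or its reverse complement TGATGCAA, in Iars, Nupr1, Tars, Yars, Chac1 and Slc1a4, while Trib3 carried TTACATCA and Gars carried TTTCATCA. The first base of the match lay at 7 bases from the annotated start in Iars, at 14 in Trib3, at -110 in Nupr1, at -15 in Tars and at -193 in Chac1, where negative values are upstream.

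The first question is how the members differed between IL-34 and CSF-1. Under IL-34 the large amino acid transporter Slc7a5, the isoleucyl-tRNA synthetase Iars and the serine synthesis enzyme Psat1 were lower, and the stress factor Ddit3 was higher, on the mean of both regions. Of the 38 members, 36 had at least 1 TPM in at least 3 libraries and were tested. With limma and Benjamini-Hochberg adjustment over 12419 genes, 4 members were higher under IL-34 and 8 were lower at an adjusted p under 0.05. These 12 members are 33.3% of those tested, against 13.4% of all genes. In each direction the shares were 11.1% of members against 2.73% of all genes for higher, and 22.2% against 10.7% for lower. The median log2 fold change of the 36 members was -0.11, beside -0.0704 over all genes.

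Direction and role went together on the mean of both regions. All 4 higher members were stress factors, and all 8 lower members were transporters, synthesis enzymes or synthetases. The median log2 fold change was 0.17 over 10 tested stress factors, -0.12 over 9 synthesis enzymes, -0.19 over 5 transporters and -0.12 over 12 synthetases, with 11 of the 12 synthetases and all 5 transporters below 0. The median over all genes, -0.0704, was below 0 too. Scaling each library by its median ratio to the mean library moved the median of all genes to 0.000839 and the members' median to -0.03. The split then became 7 higher and 5 lower, with Atf4, Ppp1r15a and Got1 added as higher and Slc1a4, Slc1a5 and Gars no longer called as lower. Over all genes the share of calls that were higher went from 20.3% to 53.1% with that scaling. From transcripts of at least 1000 nt, 2 of 35 members were higher and 16 were lower on the mean, and 12.7% of the calls over all genes were higher.

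**Figure D1:**
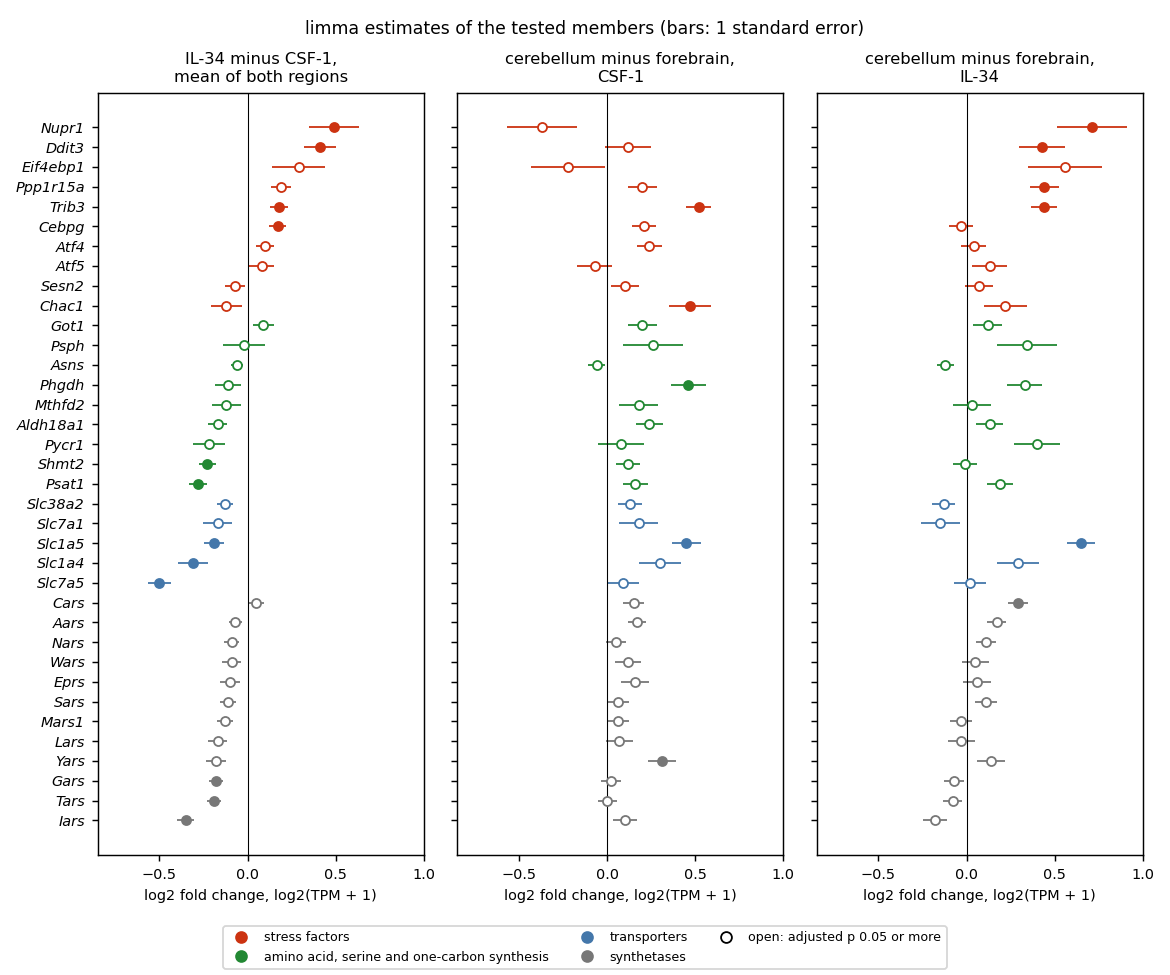
limma log2 fold changes on log2(TPM + 1) of the 36 tested members for IL-34 minus CSF-1 as the mean of both regions, and for cerebellum minus forebrain under each ligand; bars are 1 standard error, colours mark the role, and filled points have an adjusted p under 0.05. In the first panel all 4 filled points to the right of 0 are stress factors, and all 8 to the left belong to the other 3 roles; in both region panels every filled point lies to the right of 0.

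Within the regions the counts were unequal. In forebrain 1 member, Slc7a5, was called, and it was lower (2.78% of members, against 0.773% of all genes called lower and 1.2% in either direction). In cerebellum 3 members were higher and 7 were lower (27.8% of members, against 12.8% of all genes; 3% of all genes were higher and 9.82% lower). Without overlap of the libraries, 4 members were higher and 7 lower in forebrain, where 5.9% and 12.6% of all genes were. In cerebellum the same counts were 6 and 15, where 8.21% and 27.9% of all genes were. The medians of the members, -0.06 in forebrain and -0.11 in cerebellum, lay beside -0.0422 and -0.10 over all genes. With median-ratio scaling the cerebellum split was 5 higher and 2 lower, as Trib3 (0.25) and Cars (0.23) joined the higher calls and only Slc7a5 and Iars stayed lower. That scaling moved the median of all genes in cerebellum from -0.10 to -0.000929.

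The difference in ligand effect between the regions was tested itself. The limma interaction term called no member at an adjusted p under 0.05, where 0.145% of all genes were called (0.121% with a positive and 0.0242% with a negative term), and 5 members had an unadjusted p under 0.05. These were Nupr1 (1.08), Eif4ebp1 (0.79), Slc38a2 (-0.27), Iars (-0.28) and Cebpg (-0.24), as log2 differences of the cerebellum effect minus the forebrain effect, with adjusted p from 0.213 to 0.368. The share of all genes at that unadjusted threshold was not worked out, so these 5 are only listed. Across the 36 members the 2 ligand effects, which share no library, had a Pearson r of 0.439, beside -0.0225 across all 12419 genes. Members share their libraries and their pathways, so these values are given as a description. Of the 36 members, 24 lay below 0 in both regions and 5 lay above 0 in both, against 5734 and 2096 of all 12419 genes.

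Among the transporters, Slc7a5 gave the clearest ligand difference. It encodes LAT1, which exchanges leucine, isoleucine and other large neutral amino acids, and lies on the minus strand at chr8:121881150-121907694 of GRCm38. In forebrain Slc7a5 measured 33.7, 38.2 and 41.1 TPM under CSF-1 and 29.4, 24.6 and 27.3 TPM under IL-34. In cerebellum it measured 40.3, 40.2 and 39.8 TPM under CSF-1 and 29.4, 24.8 and 28.2 TPM under IL-34. All 6 IL-34 libraries lay below all 6 CSF-1 libraries. The log2 fold change of Slc7a5 was -0.46 in forebrain (SE 0.0909, limma adjusted p 0.0379), -0.53 in cerebellum (SE 0.0909, adjusted p 0.0072) and -0.50 on the mean (SE 0.0643, adjusted p 0.00105). Levels under IL-34 were 0.719 of those under CSF-1 in forebrain and 0.685 in cerebellum. The call on the mean held in all 12 other settings and when each of the 12 libraries was left out. The forebrain call of Slc7a5 was lost in 8 of the 12 fits without 1 library, those without CSF-1 replicate 2 or 3 or IL-34 replicate 2 or 3 of forebrain, any CSF-1 replicate of cerebellum or IL-34 replicate 3 of cerebellum. Without cerebellum IL-34 replicates 1 and 2 the value was -0.49 in cerebellum (adjusted p 0.142) and -0.48 on the mean (adjusted p 0.0167).

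The other transporters moved less with the ligand. Slc1a5 encodes ASCT2, a carrier of glutamine and other neutral amino acids. It measured 24.1, 23.5 and 26.7 TPM in forebrain CSF-1, 19.8, 19.3 and 21.3 in forebrain IL-34, 33.1, 34.6 and 35 in cerebellum CSF-1, and 32.5, 34.9 and 28.8 TPM in cerebellum IL-34 libraries. The ligands did not overlap in forebrain but did in cerebellum, and the mean effect was -0.19 (SE 0.0573, adjusted p 0.0496). Slc1a4 encodes ASCT1, a related carrier of serine and alanine. Its levels were 6.03, 7.26 and 6.01 TPM, then 5.23, 4.13 and 5.81 TPM, in forebrain under CSF-1 and IL-34, and 8.02, 8.04 and 8.34, then 6.13, 6.86 and 6.14 TPM, in cerebellum. In both regions every IL-34 library was below every CSF-1 library, with a mean effect of -0.31 (SE 0.0831, adjusted p 0.0344). When 1 library was left out, the call of Slc1a5 remained in 1 of 12 fits and that of Slc1a4 in 3 of 12 fits. Slc38a2 encodes SNAT2, the sodium-coupled neutral amino acid carrier induced by amino acid shortage. It measured 108, 119 and 123 TPM, then 123, 113 and 113 TPM, in forebrain under CSF-1 and IL-34, and 136, 128 and 119, then 107, 105 and 106 TPM, in cerebellum. Here the ligands overlapped in forebrain and not in cerebellum, where the log2 fold change was -0.27 (SE 0.0656, adjusted p 0.0272). Without cerebellum IL-34 replicates 1 and 2 it was still -0.27, with an adjusted p of 0.284. Slc7a1, the carrier of arginine and lysine, ranged from 24.6 to 37.6 TPM and was called in no comparison.

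**Figure D2:**
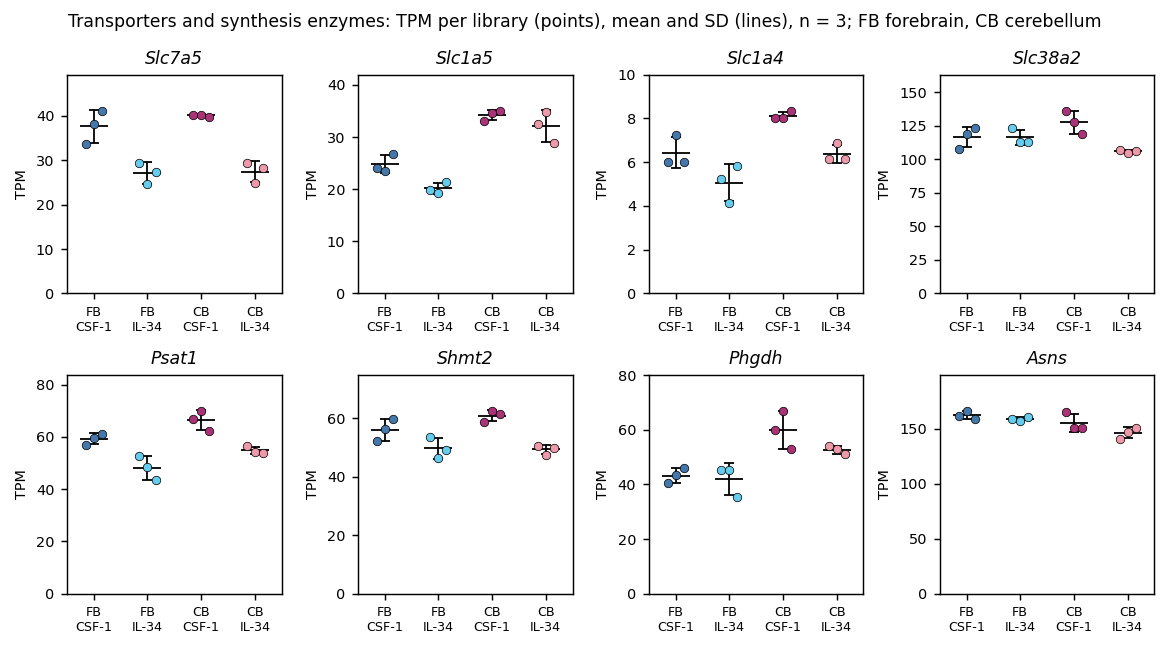
TPM of 4 transporters and 4 synthesis enzymes in each library by region (FB forebrain, CB cerebellum) and ligand; points are libraries, lines are the mean and SD of 3. All 6 IL-34 libraries of Slc7a5 lie below all 6 CSF-1 libraries, Slc1a5 is higher in every cerebellum library than in any forebrain library, and Asns lies between 141 and 166 TPM throughout.

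The synthetases, which join amino acids to their tRNAs, were the most abundant role, at a summed 1444 to 1729 TPM per library. Nars (asparagine) was the highest single member at 261 to 317 TPM, and its range did not overlap that of the next, Sars (serine), at 172 to 219 TPM, which did overlap Eprs (glutamate and proline) at 152 to 198 TPM. Of the 12 synthetases, 3 (25%) were lower under IL-34 on the mean of both regions and none was higher, where 10.7% of all genes were lower and 2.73% higher. The log2 fold changes of the 12 ran from -0.35 to 0.05, and the only value above 0 was that of Cars, which was -0.06 (adjusted p 0.154) from transcripts of at least 600 nt.

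Iars, which charges tRNAs with isoleucine and lies on the plus strand at chr13:49682100-49734267, had the largest change of the 12. It measured 91.7, 104 and 104 TPM under CSF-1 and 91.8, 83.1 and 83.2 TPM under IL-34 in forebrain. In cerebellum Iars measured 110, 107 and 104 TPM under CSF-1 and 77, 71.1 and 79.7 TPM under IL-34. The forebrain groups overlapped by a single library of each ligand, while in cerebellum the ligands were well apart. The log2 fold change was -0.21 in forebrain, which was not called, -0.49 in cerebellum (SE 0.0678, limma adjusted p 0.003) and -0.35 on the mean (SE 0.048, adjusted p 0.00141). The mean call of Iars held in all 12 other settings, from -0.38 to -0.24 with the single left-out libraries included, and in all 12 fits without 1 library. Without cerebellum IL-34 replicates 1 and 2 the mean effect was -0.32 (adjusted p 0.0259) and the cerebellum effect -0.42 (adjusted p 0.113).

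Tars, the threonyl enzyme, measured 102, 107 and 113, then 100, 91.6 and 98 TPM in forebrain under CSF-1 and IL-34, and 107, 108 and 108, then 90.9, 88.2 and 95.4 TPM in cerebellum. Gars, the glycyl enzyme, measured 137, 148 and 152, then 143, 126 and 128 TPM in forebrain, and 147, 150 and 145, then 128, 126 and 125 TPM in cerebellum. For Tars the ligands did not overlap in either region, while for Gars they overlapped in forebrain only. The mean effects were -0.19 for Tars (SE 0.0381, adjusted p 0.00976) and -0.18 for Gars (SE 0.0397, adjusted p 0.0162). In cerebellum alone they were -0.23 (adjusted p 0.0233) and -0.22 (adjusted p 0.033). Both mean calls held in 12 of 12 fits without 1 library, but without cerebellum IL-34 replicates 1 and 2 the mean values were -0.16 (adjusted p 0.095) and -0.18 (adjusted p 0.0945). With median-ratio scaling Gars was at -0.10 (adjusted p 0.0524).

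The other 9 synthetases were called in no ligand comparison. Yars, the tyrosyl enzyme, measured 64.5, 70.1 and 67.8, then 60.6, 59.8 and 70.1 TPM in forebrain under CSF-1 and IL-34. In cerebellum it measured 77.8, 93.6 and 81.4, then 70.7, 70.3 and 68.4 TPM, so that the CSF-1 group alone stood high. Cars, the cysteinyl enzyme, measured 102, 107 and 106, then 105, 105 and 101 TPM in forebrain, and 114, 120 and 116, then 123, 139 and 120 TPM in cerebellum. Cerebellum libraries were all above forebrain libraries. Transcripts of Cars of at least 1000 nt gave 105, 107 and 108 TPM in cerebellum under CSF-1 and 98.1, 96 and 99.9 TPM under IL-34, an order opposite to that of the total. From transcripts of at least 600 nt its cerebellum ligand effect was -0.12 (limma adjusted p 0.0763), against 0.12 (adjusted p 0.17) from all, and neither was called. On the mean contrast, Lars (-0.17, adjusted p 0.0548), Mars1 (-0.13, adjusted p 0.0809) and Sars (-0.11, adjusted p 0.137) came nearest to the threshold among those not called. Aars, Wars, Nars and Eprs lay between -0.10 and -0.07.

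**Figure D3:**
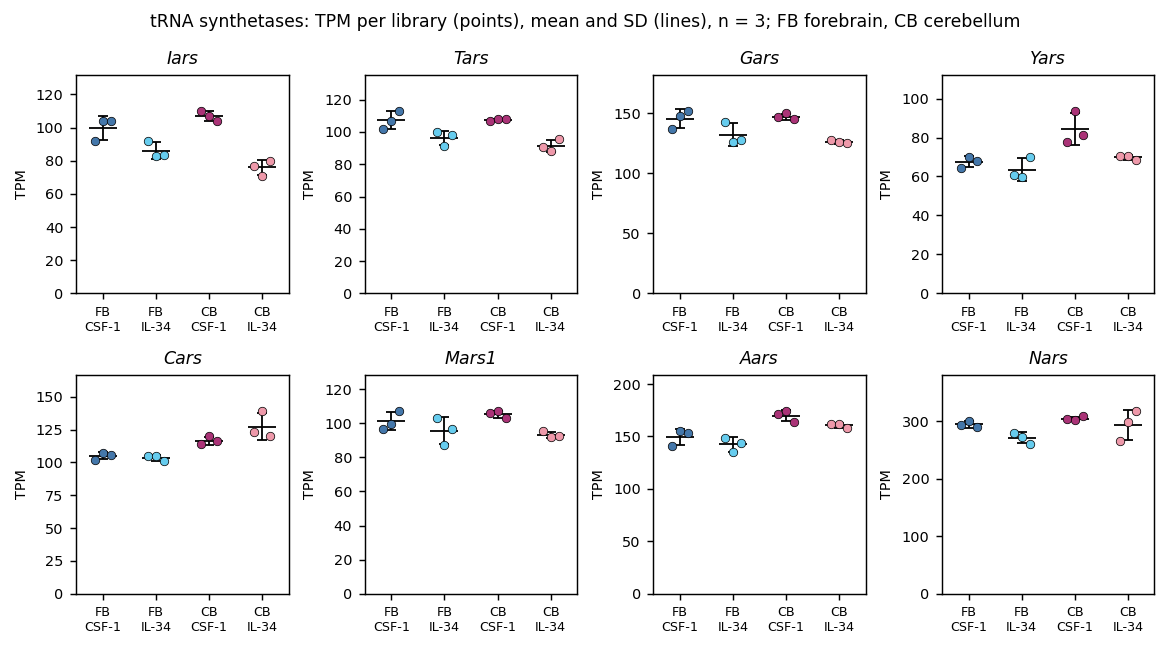
TPM of 8 of the 12 tRNA synthetases in each library by region (FB forebrain, CB cerebellum) and ligand; points are libraries, lines are the mean and SD of 3. Iars in cerebellum lies at 104 to 110 TPM under CSF-1 and 71.1 to 79.7 TPM under IL-34, whereas Cars lies at 120 to 139 TPM in the cerebellum IL-34 libraries, of which 12.8 to 34.1 TPM came from transcripts under 600 nt.

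Among the synthesis enzymes, 2 of 9 (22.2%, against 10.7% of all genes) were lower under IL-34 on the mean of both regions, and both act on the path from glycolysis to serine and glycine. Psat1, the aminotransferase of serine synthesis, measured 57, 59.7 and 61.3 TPM under CSF-1 and 52.8, 48.3 and 43.4 TPM under IL-34 in forebrain. In cerebellum Psat1 measured 67, 69.8 and 62.4 TPM under CSF-1 and 56.4, 54.2 and 54 TPM under IL-34. The ligands did not overlap in either region. The log2 fold change of Psat1 was -0.28 on the mean (SE 0.0512, limma adjusted p 0.00618) and -0.27 in cerebellum (adjusted p 0.0365). The mean call held in 11 of 12 other settings and in all 12 fits without 1 library, and missed the threshold without cerebellum IL-34 replicates 1 and 2 (-0.30, adjusted p 0.0548).

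Shmt2, the mitochondrial enzyme that turns serine into glycine and a one-carbon unit, measured 52, 56.2 and 59.7, then 53.5, 46.4 and 49 TPM in forebrain under CSF-1 and IL-34. In cerebellum it measured 58.6, 62.3 and 61.4, then 50.4, 47.5 and 49.9 TPM. The ligands overlapped in forebrain and not in cerebellum, with a mean effect of -0.23 (SE 0.0481, adjusted p 0.0112) and a cerebellum effect of -0.30 (adjusted p 0.0211). Phgdh, which catalyses the first step of serine synthesis, measured 40.4, 43.4 and 45.9, then 45.2, 45.4 and 35.4 TPM in forebrain, and 59.8, 66.8 and 53.1, then 54.1, 53 and 51 TPM in cerebellum. Every cerebellum library of Phgdh lay above every forebrain library, and it had no ligand call. Asns, which makes asparagine and is a textbook ATF4 target, measured 162, 166 and 159, then 159, 157 and 161 TPM in forebrain, and 165, 151 and 151, then 141, 147 and 151 TPM in cerebellum. Asns was called in no comparison, and its mean ligand effect was -0.06 (SE 0.034, adjusted p 0.269). The remaining members of the role, Psph, Mthfd2, Aldh18a1, Pycr1 and Got1, were also called in none, and spanned levels from 1.49 to 2.92 TPM for Pycr1 up to 134 to 191 TPM for Mthfd2. Aldh18a1, an enzyme of proline synthesis, came nearest at -0.17 (adjusted p 0.0568).

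The stress factors were higher under IL-34 where they were called, and part of their signal came from short transcripts. Summed over the 12 genes they reached 509 to 538 TPM in forebrain CSF-1, 554 to 579 in forebrain IL-34, 544 to 588 in cerebellum CSF-1 and 668 to 709 TPM in cerebellum IL-34 libraries. In cerebellum, most of the rise of the sum under IL-34 lay in transcripts under 1000 nt of Eif4ebp1, Ddit3 and Nupr1. Those of Eif4ebp1 gave 12.3, 46.4 and 57.7 TPM under CSF-1 and 87.8, 107 and 66.7 TPM under IL-34. Those of Ddit3 gave 57.8, 69.6 and 68.7, then 97.7, 95.1 and 98.9 TPM. For Nupr1, those of at least 600 nt gave 22, 22.6 and 27.1, then 36, 39.7 and 38.4 TPM. Its part under 600 nt is given below. Atf4 itself, at chr15:80255184-80257541 on the plus strand, measured 132, 142 and 155 TPM in forebrain CSF-1 and 168, 165 and 158 TPM in forebrain IL-34. In cerebellum Atf4 measured 179, 169 and 159 TPM under CSF-1 and 182, 161 and 162 TPM under IL-34. The forebrain CSF-1 libraries were the lowest of the 12, and the other 3 groups overlapped. Atf4 was not called for the ligand on the mean (0.10, SE 0.0503, adjusted p 0.226), in forebrain (0.20, adjusted p 0.222) or in cerebellum (0.00, adjusted p 0.975).

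Ddit3, the C/EBP-family factor CHOP that acts in prolonged stress, was the only stress factor whose mean call held whichever library was left out. It measured 66.3, 67 and 48.4 TPM in forebrain CSF-1, 63.1, 71.7 and 81.9 in forebrain IL-34, 57.8, 69.6 and 68.7 in cerebellum CSF-1, and 97.7, 95.1 and 98.9 TPM in cerebellum IL-34 libraries. The cerebellum IL-34 group lay above the other 9 libraries, which overlapped one another. In each other group the lowest library (48.4, 63.1 and 57.8 TPM) had the group's longest shortest expressed length (669, 669 and 661 nt). Within the cerebellum IL-34 group the order differed, with the lowest library (95.1 TPM) at 491 nt. That group had the shortest such lengths (491 to 580 nt), so ligand and transcript length cannot be told apart there. The log2 fold change of Ddit3 was 0.41 on the mean (SE 0.0916, limma adjusted p 0.015) and 0.57 in cerebellum (SE 0.13, adjusted p 0.0204). The mean call was lost with the shortest expressed length of each library as a covariate (0.29, adjusted p 0.0928) and without cerebellum IL-34 replicates 1 and 2 (0.43, adjusted p 0.106). All of its TPM came from transcripts of at least 600 but under 1000 nt, so it could not be measured from transcripts of at least 1000 nt. Its gene (chr10:127290774-127296288, plus strand) overlaps Mars1 (chr10:127296221-127311786, minus strand) at the 3′ end, and the kit named in the labels does not mark strand, so reads in the overlap cannot be told apart.

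Nupr1, a small chromatin protein induced by stress, measured 31.2, 44.2 and 32.6, then 26.7, 39.2 and 38.2 TPM in forebrain under CSF-1 and IL-34. In cerebellum it measured 26, 25.9 and 30.4 TPM under CSF-1 and 63.3, 67.5 and 42.8 TPM under IL-34. Cerebellum IL-34 replicates 1 and 2 stood high, and forebrain libraries overlapped. The cerebellum effect of Nupr1 was 1.03 (SE 0.20, limma adjusted p 0.0112), a ratio of 2.11, and the mean effect was 0.49 (SE 0.14, adjusted p 0.0401). Transcripts under 600 nt gave 25.1 and 25.8 TPM of it in cerebellum IL-34 replicates 1 and 2 and nearly 0 in the other 10 libraries. From transcripts of at least 600 nt the cerebellum effect was 0.56 (adjusted p 0.0372) and the mean effect 0.25 (adjusted p 0.14). From those of at least 1000 nt, which held 2.04 to 6.32 TPM, the cerebellum effect was -0.28 and was not called.

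Ppp1r15a, which encodes GADD34 and brings a phosphatase to eIF2, measured 41.7, 41.2 and 41, then 45.4, 42.5 and 42.4 TPM in forebrain under CSF-1 and IL-34. In cerebellum it measured 46.9, 51.3 and 44.8, then 51.6, 63.3 and 63.9 TPM. The ligands did not overlap in either region, and the cerebellum effect was 0.31 (SE 0.083, limma adjusted p 0.0354). Without cerebellum IL-34 replicates 1 and 2 it was 0.42 (adjusted p 0.0961), and the mean effect was then 0.24 (adjusted p 0.0475). Trib3, a pseudokinase that restrains ATF4 and CHOP, measured 35.9, 38.7 and 41.2, then 46.7, 42.9 and 44.9 TPM in forebrain, and 55.1, 60.2 and 51.7, then 63.7, 58.9 and 61.2 TPM in cerebellum. The ligands did not overlap in forebrain, and all cerebellum libraries were above all forebrain libraries. Its mean ligand effect was 0.18 (SE 0.0508, adjusted p 0.044). Cebpg, a C/EBP-family partner of ATF4, measured 70.7, 71.8 and 80.5, then 96.6, 88.8 and 87.7 TPM in forebrain, and 84.6, 86.4 and 87.3, then 86.1, 85.6 and 96.8 TPM in cerebellum. The forebrain CSF-1 libraries were the lowest 3, and the mean effect was 0.17 (SE 0.0482, adjusted p 0.0383). The mean calls of Trib3 and Cebpg each held in 2 of 12 fits without 1 library.

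The rest of the role was called in no ligand comparison. Chac1, which degrades glutathione, measured 6.87, 5.2 and 5.35, then 5.29, 6.22 and 5.94 TPM in forebrain under CSF-1 and IL-34, and 9.64, 7.69 and 7.98, then 7.48, 7.02 and 6.29 TPM in cerebellum. In cerebellum its IL-34 libraries lay below its CSF-1 libraries, the opposite order to Ddit3, at -0.25 (SE 0.12, adjusted p 0.201). Eif4ebp1, a translation repressor under mTORC1, ranged from 50.5 to 94.2 TPM in cerebellum CSF-1 and from 102 to 133 TPM in cerebellum IL-34 libraries, an effect of 0.68 (SE 0.21, adjusted p 0.0548). Its form under 1000 nt gave 87.8, 107 and 66.7 TPM in cerebellum IL-34 libraries, where its form of at least 1000 nt gave 30, 26.5 and 35.2 TPM, the latter below the 34.2 to 38.2 TPM of cerebellum CSF-1 in 2 of 3. Sesn2 (22.8 to 27.7 TPM) and Atf5 (7.59 to 9.96 TPM) varied little. Ddit4 (0.4 to 1.62 TPM) and Vldlr (0.0878 to 0.999 TPM) did not reach the filter and were not tested.

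**Figure D4:**
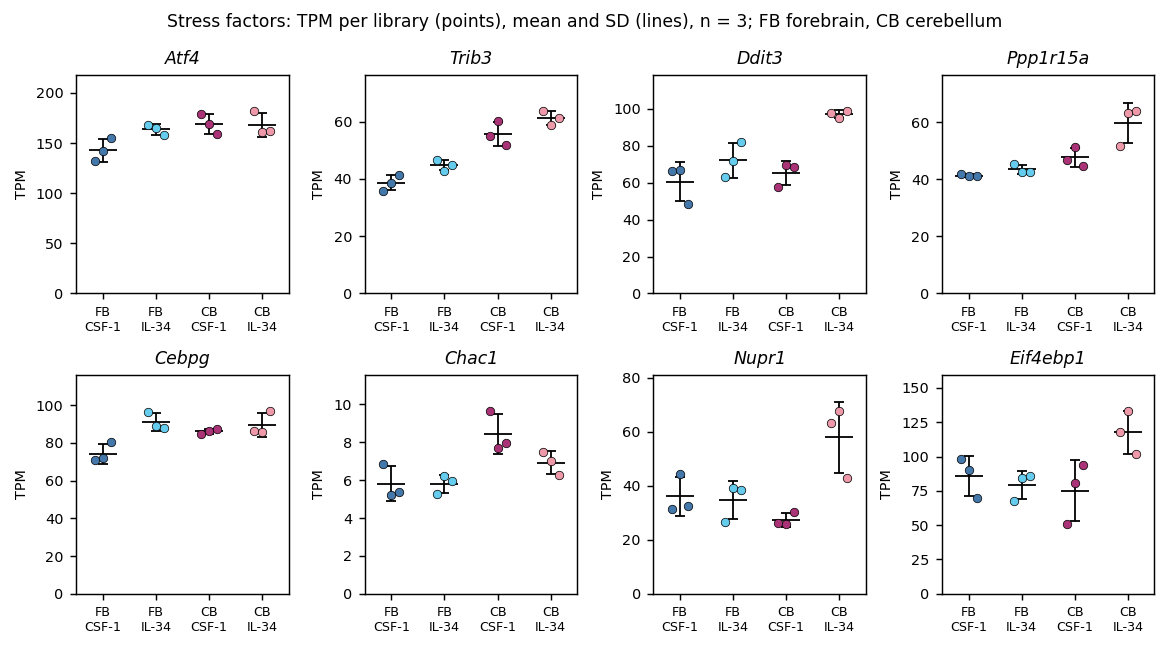
TPM of 8 stress factors in each library by region (FB forebrain, CB cerebellum) and ligand; points are libraries, lines are the mean and SD of 3. Trib3 is higher in every cerebellum than in any forebrain library, and the 3 cerebellum IL-34 libraries of Ddit3, at 95.1 to 98.9 TPM, lie above the other 9.

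**Figure D5:**
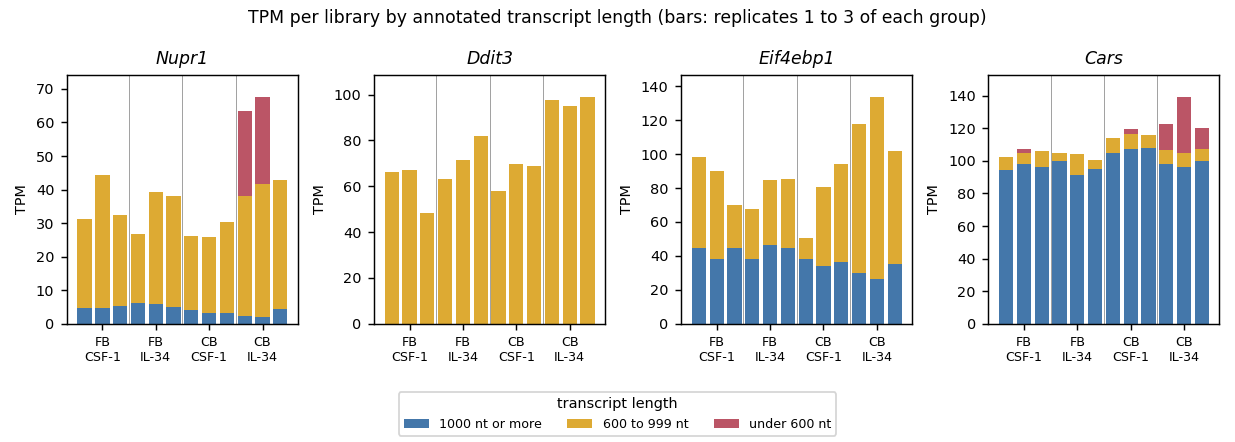
TPM of Nupr1, Ddit3, Eif4ebp1 and Cars in each of the 12 libraries, stacked by the annotated length of the transcript; bars are replicates 1 to 3 of each group (FB forebrain, CB cerebellum). Transcripts under 600 nt add 25.1 and 25.8 TPM to Nupr1 in cerebellum IL-34 replicates 1 and 2, and 12.8 to 34.1 TPM to Cars in the 3 cerebellum IL-34 libraries.

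The second question is how the members differed between cerebellum and forebrain cultures under the same ligand. Trib3 and Slc1a5 were higher in cerebellum under either ligand, and no member was called lower under either from all transcripts. Under CSF-1, 5 of 36 members were higher in cerebellum (13.9%, against 3.29% of all genes called higher, 3.42% called lower and 6.71% in either direction). Under IL-34, 6 of 36 were higher (16.7%, against 5.27% called higher, 8.22% called lower and 13.5% in either direction). From transcripts of at least 1000 nt, 5 of 35 members were higher and 2 were lower under IL-34. In that setting 23.2% of the calls over all genes were higher. The members' median log2 difference was 0.14 under CSF-1 and 0.12 under IL-34, beside 0.0307 and -0.0195 over all genes. Without overlap of libraries, 17 members were higher in cerebellum and 1 was lower under CSF-1 (17.2% and 12.2% of all genes). Under IL-34 the counts were 13 and 3 (14.1% and 18.9% of all genes).

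For Trib3, on the minus strand at chr2:152337422-152344032, the 6 cerebellum libraries lay at 51.7 to 63.7 TPM and the 6 forebrain libraries at 35.9 to 46.7 TPM. The difference was 0.52 under CSF-1 (SE 0.0719, limma adjusted p 0.0017) and 0.44 under IL-34 (SE 0.0719, adjusted p 0.00295). For Slc1a5, on the plus strand at chr7:16781340-16798274, cerebellum libraries lay at 28.8 to 35 TPM and forebrain libraries at 19.3 to 26.7 TPM. The difference was 0.45 under CSF-1 (SE 0.0811, adjusted p 0.00757) and 0.65 under IL-34 (SE 0.0811, adjusted p 0.000649). Under CSF-1 both calls held in all 13 other settings and in all 12 fits without 1 library. Without cerebellum IL-34 replicates 1 and 2, the IL-34 difference of Slc1a5 was 0.50 (adjusted p 0.047) and that of Trib3 0.44 (adjusted p 0.0852).

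Under CSF-1 the other 3 higher members were Chac1 (0.47, adjusted p 0.0444), Phgdh (0.46, adjusted p 0.0262) and Yars (0.31, adjusted p 0.0396). When 1 library was left out, Phgdh kept its call in 8 of 12 fits, Yars in 4 and Chac1 in 2. With median-ratio scaling Chac1 (0.44, adjusted p 0.0628) and Yars (0.28, adjusted p 0.0658) were not called. Phgdh is abundant in astrocytes, whose 10 markers summed to 29.9 to 33.8 TPM in forebrain and 15.1 to 20.8 TPM in cerebellum libraries, with Gfap at 5.79 to 8.22 and 3.01 to 6.09 TPM and Ntsr2 at 0 in 11 of 12. Of these markers, S100b was at 0 to 0.0822 TPM in forebrain and 0.159 to 0.836 TPM in cerebellum libraries, and Slc1a3 overlapped between the regions. The 10 markers of the oligodendrocyte lineage summed to 125 to 153 TPM in forebrain and 138 to 173 TPM in cerebellum libraries, mostly Mbp, Cnp and Cspg4, with Mog at 0 to 0.491 TPM, and the part of either cell type in the region results was not tested.

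Under IL-34 the other 4 higher members were Ppp1r15a (0.44, adjusted p 0.00607), Cars (0.29, adjusted p 0.00733), Nupr1 (0.71, adjusted p 0.034) and Ddit3 (0.43, adjusted p 0.0498). Ppp1r15a kept its call in 12 of 13 other settings and was higher by 0.55 without cerebellum IL-34 replicates 1 and 2 (adjusted p 0.0188). The calls of Cars and Nupr1 were lost from transcripts of at least 600 nt. Transcripts of Cars under 600 nt gave 16.2, 34.1 and 12.8 TPM in cerebellum IL-34 libraries and 0 to 3.47 TPM elsewhere, and from transcripts of at least 600 nt its difference was 0.04 (adjusted p 0.563). Nupr1 was 0.25 (adjusted p 0.32) from transcripts of at least 600 nt and -0.85 (adjusted p 0.00384) from those of at least 1000 nt. Ddit3, close to the threshold, kept its call in 4 of 11 other settings and in 3 of 12 fits without 1 library. The minimum of 600 nt, 1 of those 4 settings, leaves its values unchanged, as all of its TPM came from transcripts of at least that length. The difference of Ddit3 was 0.41 to 0.46 in the 11 other settings, except with the shortest expressed length as a covariate, where it was 0.07 (adjusted p 0.909). Eif4ebp1, not called here, was -0.48 (adjusted p 0.0043) from transcripts of at least 1000 nt, against 0.56 (adjusted p 0.0983) from all. Across the 36 members the 2 region differences, which share no library, had a Pearson r of 0.0594, beside 0.379 over all genes. Of these members 23 lay above 0 under both ligands and 1 below 0 under both, against 4129 and 3819 of all 12419 genes.

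In all, 18 of the 36 tested members were called in at least 1 of the 6 comparisons and 18 in none. Most differences that were called are small, with ligand effects on the mean between -0.50 and 0.49 on the log2(TPM + 1) scale.

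Genes next to the members in the pathway were read in the same fit, as counts and medians only. Of 13 genes for the eIF2 kinases, eIF2 and its exchange factor, 4 (30.8%) were lower and none higher under IL-34 on the mean of both regions, where 10.7% of all genes were lower and 2.73% higher, and the median was -0.11. They included Eif2b3 (-0.40, limma adjusted p 0.00881) and Eif2b5 (-0.13, adjusted p 0.0372), subunits of the exchange factor eIF2B, and Eif2s1, the alpha subunit of eIF2 (-0.14, adjusted p 0.0461). The fourth was Ppp1r15b (-0.20, adjusted p 0.0417), the constitutive counterpart of Ppp1r15a, named after its values were seen. In the region comparisons no gene of this list was called under CSF-1, and Eif2s1 (-0.28) and Eif2b2 (-0.23) were lower in cerebellum under IL-34 (15.4%, against 8.22% of all genes).

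Of 14 tested other targets and partners of ATF4, 1 was higher (7.14%, against 2.73% of all genes) and 2 were lower (14.3%, against 10.7% of all genes) under IL-34 on the mean, with a median of 0.02. Atf3, a stress-induced factor of the same family named after its values were seen, was higher (0.23, adjusted p 0.0111). Xpot, the tRNA exporter, was lower (-0.23, adjusted p 0.0078), and so was the AP-1 repressor Jdp2 (-0.28, adjusted p 0.0362), also named after its values were seen. Between regions 3 of the 14 were higher in cerebellum under CSF-1 (21.4%, against 3.29% of all genes) and 4 under IL-34 (28.6%, against 5.27%), with none lower. Slc7a11, the cystine importer, led under either ligand (1.31 and 1.24, adjusted p 1.48e-06 and 1.09e-06), followed by the autophagy receptor Sqstm1 (0.45 and 0.31) and, under CSF-1, the kinase Ern1 (0.53).

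The supply genes beside the members are read against 10.7% of all genes lower and 2.73% higher under IL-34 on the mean of both regions, a split that evened out with median-ratio scaling. Of 17 other serine and one-carbon genes 3 (17.6%) were lower and none higher, with a median of -0.06. They were Gcsh, of the glycine cleavage system (-0.39, limma adjusted p 9.29e-05), Mthfd1l (-0.41, adjusted p 0.00694) and Mthfd1 (-0.33, adjusted p 0.00983), enzymes of folate one-carbon metabolism. Glul, glutamine synthetase, was higher under IL-34 in cerebellum (0.73, adjusted p 0.0149). Of 14 other amino acid transporters 1 was lower, a share of 7.14% that is under the share of all genes, and none was higher. It was the neutral amino acid carrier Slc7a8 (-0.24, adjusted p 0.00717). Of 11 other cytosolic synthetases and scaffold proteins 4 (36.4%) were lower and none higher, with a median of -0.19. These were Vars (-0.51, adjusted p 0.00105), Hars (-0.23, adjusted p 0.0079), Kars (-0.23, adjusted p 0.00926) and the scaffold protein Eef1e1 (-0.24, adjusted p 0.0118).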

How the data were processed

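RNA was sequenced from 12 cultures of WT mouse microglia in 4 groups of 3 libraries, by SMART-Seq v4 per the labels. The authors deposited a table of TPM per transcript, made with kallisto 0.43.0 and GRCm38 per the submitters' processing notes. Further steps are not stated in these sources, and depth is unknown. TPM of 115879 transcripts was summed over 46262 genes. limma 3.58.1 in R 4.3.3, with a mean-variance trend, was fitted to log2(TPM + 1) of 12419 genes that reached 1 TPM in 3 or more libraries. The fit had 4 group means and 8 residual degrees of freedom. In all, 6 contrasts were read, and p-values were two-sided and adjusted by Benjamini-Hochberg over all genes tested. Fold changes on this scale understate those of low genes. Ratios are of mean TPM.

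Members and lists were chosen with earlier results of these data known. Values in every library are given for members called in any contrast and for Atf4, Ddit3, Trib3, Asns and Chac1. Of each other pathway list, up to 4 called genes with the smallest p are named. Of the 38 member symbols, 37 were in the table as such, and Mars1 was there as Mars. Transcript lengths (98.6% of transcripts) and gene positions came from GENCODE M21 on GRCm38, and promoter windows from RefSeq on GRCm38.p6. The shortest expressed length of a library was the 1st percentile of the lengths of transcripts with at least 5 TPM. Alternatives changed the pseudocount, filter, scaling, transcript length minimum, covariates and libraries. The fits were tested on simulated data.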

Additional observations from a re-analysis of the deposited data

How the results depend on the processing

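In forebrain the ligand comparison called 1 member. It called 0 without a filter on low values, with only the groups compared and without cerebellum IL-34 replicates 1 and 2, 2 with median-ratio scaling, quantile normalization or the length floor as a covariate, 3 from transcripts of at least 1000 nt, and 7 from those with the length trend removed. In cerebellum the 10 calls became 5 without a filter, 0 with the length floor as a covariate and 0 without both replicates. On the mean of both regions the 12 calls became 7 without a filter, 4 with the length floor and 3 without both replicates, which were Ppp1r15a, Slc7a5 and Iars. Under CSF-1 the 5 region calls became 2 without a filter, 3 with median-ratio scaling, 8 from transcripts of at least 1000 nt, 9 with the length trend removed, and 2 with only the groups compared or without both replicates. Under IL-34 the 6 region calls became 16 with the length trend removed, 0 with the length floor and 2 without both replicates. From transcripts of at least 1000 nt, 1 member was higher and 13 were lower for the ligand in cerebellum, against 3 and 7 from all transcripts. On the mean of both regions these counts were 2 and 16, against 4 and 8. Between regions under IL-34 they were 5 and 2, against 6 and 0, and with the length trend removed they were 12 and 4. The length floor separates the cerebellum IL-34 group (491 to 580 nt, against 592 to 669 nt elsewhere), so that the covariate and the group cannot be told apart there. Some of these fits also hold fewer libraries, and the cause of these changes was not tested.

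From transcripts of at least 1000 nt the sign of Nupr1 turned in cerebellum (-0.28) and on the mean (-0.04) for the ligand, and between regions under IL-34 (-0.85). With the length trend removed it was -0.16 in cerebellum and -0.78 between regions. Psph turned in cerebellum from 0.03 to -0.42 and -0.32 under these settings, and Eif4ebp1 between regions under IL-34 to -0.48 and -0.39. Cars, not called for the ligand, turned in cerebellum from 0.12 to -0.12 from transcripts of at least 600 or 1000 nt, and was 0.01 with the length trend removed. Transcripts of at least 600 nt, and the fit without cerebellum IL-34 replicates 1 and 2, were chosen after seeing the data. The latter leaves 1 library in that group, which is assumed to vary like the others.

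Leaving out 1 library at a time gave 0 to 2 calls for the ligand in forebrain, 2 to 11 in cerebellum and 7 to 13 on the mean, 0 to 1 for the interaction, and 2 to 5 and 4 to 7 for the regions under CSF-1 and IL-34. In cerebellum the count was 3 and 5 without CSF-1 replicates 1 and 2, and 5 and 2 without IL-34 replicates 1 and 2. On the mean it was 7 without forebrain IL-34 replicate 2 or cerebellum CSF-1 replicate 1 or 3. The 1 interaction call, without cerebellum IL-34 replicate 3, was Nupr1 (1.28, limma adjusted p 0.0372). The region count under CSF-1 was 2 without forebrain or without cerebellum CSF-1 replicate 2, and 3 without each of the other CSF-1 libraries and each cerebellum IL-34 library.

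Whether replicate numbers pair the samples was not settled. Deviations from the group means correlated between -0.454 and 0.458 over 18 pairs with the same number and between -0.455 and 0.569 over 36 other pairs. Only 1 of 12 libraries correlated best with its own number. The highest values, 0.569 and 0.543, joined forebrain CSF-1 replicate 3 with cerebellum CSF-1 replicate 1 and with forebrain IL-34 replicate 1. These libraries had the longest length floors (669, 661 and 669 nt), so the correlations cannot show whether the numbers mark pairs. With the replicate number as a block, 0 members were called in forebrain, 6 in cerebellum and 3 between regions under CSF-1.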

Other observations

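Beyond the cytosol, the mitochondrial tRNA synthetases were also read. Of 17 tested, 4 were lower and none higher under IL-34 on the mean of both regions (23.5%, against 10.7% of all genes called lower). Their median was -0.14 on the log2 scale, and 16 of 17 lay below 0, where the median over all genes was also below 0 (-0.0704). They were Cars2 (-0.28, limma adjusted p 0.00803), Ears2 (-0.35, adjusted p 0.00963), Rars2 (-0.16, adjusted p 0.0202) and Yars2 (-0.20, adjusted p 0.0246), which charge mitochondrial tRNAs with cysteine, glutamate, arginine and tyrosine. Between regions none was called under CSF-1 and 1 (5.88%, against 8.22% of all genes) was lower in cerebellum under IL-34, Rars2 (-0.22, adjusted p 0.0206).

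Of 19 tested genes of mTORC1 and amino acid sensing, 1 was higher (5.26%, against 2.73% of all genes) and none lower (10.7% of all genes) under IL-34 on the mean, with a median of -0.05. It was Rragd, a Rag GTPase that brings mTORC1 to the lysosome (0.33, limma adjusted p 0.0058). Rptor, which encodes the mTORC1 subunit raptor, was higher in cerebellum than in forebrain under CSF-1 (0.49, adjusted p 0.0228) and under IL-34 (0.48, adjusted p 0.0154).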
